A study of Mus musculus with 6 samples.

Results

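MiR-211 and miR-204 are sister microRNAs that are processed from introns of the ion channel genes Trpm1 and Trpm3. Every row of the deposited microRNA table that carried a mouse name of either microRNA, in either arm and with any end variant, was taken, which gave 4 of 1560 rows and 4 of the 506 rows with a mouse name. Small RNA had been sequenced from melan-alpha, a pigmented mouse melanocyte line kept in medium with fetal bovine serum. The groups were 3 libraries of melan-alpha cells infected with a lentivirus that carried mouse Mitf (MITF overexpression) and 3 libraries of melan-alpha cells named as Mitf control. The labels do not say whether the control cells received a virus without Mitf, which promoter drove Mitf, or whether the infected cells were 1 clone. All 6 libraries have extracellular vesicle as their source, although the extraction protocol speaks of collected and washed cells. More vesicles and more microRNA per vesicle cannot be told apart in such data.

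A microRNA precursor folds into a hairpin, from which the enzymes Drosha and Dicer release a short duplex of a 5p and a 3p arm. One arm is usually loaded into an Argonaute protein and the other is mostly degraded, and bases 2 to 8 of the loaded arm, the seed, do most of the pairing with target messenger RNAs. MITF, the master transcription factor of melanocytes, is known to activate Trpm1, which encodes melastatin, and miR-211 is made from the same transcript. MiR-204 is best known as an abundant microRNA of the retinal pigment epithelium. The question here was how both arms of these precursors behaved when Mitf was overexpressed.

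The sequences are shown first because the arms, and not only the gene names, decide what each row can measure. The mature sequences, from RefSeq on GRCm38.p6, are given 5′ to 3′ with the seed in capitals. MiR-211-5p lies at chr7:64205831-64205852, miR-211-3p at chr7:64205868-64205888, miR-204-5p at chr19:22750610-22750631 and miR-204-3p at chr19:22750649-22750669, all on the plus strand.
miR-211-5p: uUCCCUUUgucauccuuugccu
miR-204-5p: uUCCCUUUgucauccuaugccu
miR-211-3p: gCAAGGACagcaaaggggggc
miR-204-3p: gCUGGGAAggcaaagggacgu

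The 5p arms have the same seed and are equal at 21 of 22 bases. Their 1 difference is A17U, where positions are counted from the 5′ end and the miR-204 base is written first. The 3p arms differ in their seeds and are equal at 14 of 21 bases when set side by side without gaps. The longest run that the 3p arms share has 8 bases and lies outside both seeds. Over all 1560 rows, the seed of the 5p arms occurred in 2 rows, both of them members, and the seed of each 3p arm occurred in 1 row.

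The hairpins are shown to place the arms, with the mature sequences in capitals. The miR-211 hairpin has 106 bases at chr7:64205806-64205911 and the miR-204 hairpin 68 bases at chr19:22750605-22750672, both on the plus strand of GRCm38.p6. In GENCODE M21 the first is spanned by 12 of 23 Trpm1 transcripts and the second by 18 of 24 Trpm3 transcripts. Neither overlaps an exon of its host, and each host lies on the same strand as its microRNA.
Mir211: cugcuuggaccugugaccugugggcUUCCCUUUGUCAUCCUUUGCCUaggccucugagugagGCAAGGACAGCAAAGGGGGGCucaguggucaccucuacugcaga
Mir204: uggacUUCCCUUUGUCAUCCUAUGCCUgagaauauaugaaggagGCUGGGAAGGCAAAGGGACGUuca

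The 4 rows were miR-211-5p in its reference form, miR-211-3p without its last 2 bases, miR-204-3p in its reference form, and a row named after miR-204-5p that carries an end extension and a substitution. The reference form of miR-204-5p had no row among those used. The libraries held 279142 to 448969 tabulated reads with MITF overexpression and 342941 to 475977 in controls. Mouse-named rows took 67.2% to 73.3% of tabulated reads with MITF overexpression and 70.4% to 80.3% in controls, and the most abundant row, a predicted sequence, took 16.4% to 20.7% against 8.02% to 16.1%. The labels do not say that replicates were separate cultures, so the p-values speak of the spread among these 6 libraries alone, and that spread may be technical.

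Each of the 3 rows abundant enough to be tested was higher with MITF overexpression. MiR-211-5p rose 2.14-fold, miR-211-3p rose 4.90-fold and miR-204-3p rose 3.73-fold. All of them exceeded the count minimum in each of the 3 control libraries as well, so they did not enter the test through the MITF overexpression group alone. Of 441 tested rows, 9.98% were called higher and 5.22% lower at an adjusted p under 0.05, and the median log2 fold change of all tested rows was 0.08. Every MITF overexpression library lay above every control library in 25.2% of tested rows, and in these 3. The choice of scaling moved the split of calls, with 65.7% of calls higher by TMM, 80.5% with total counts, 93.2% with scaling by valid reads and 57.1% by TMM without the most abundant row. Total counts shifted the median log2 fold change by 0.16 and valid reads by 0.33. Relative to the median of all tested rows, miR-211-5p stood at 1.02 on the log2 scale by TMM, 1.03 with total counts and 1.01 with valid reads. A change of scaling moves all rows nearly alike, so these values had to be close. They say nothing on which scaling is right.

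**Figure D1:**
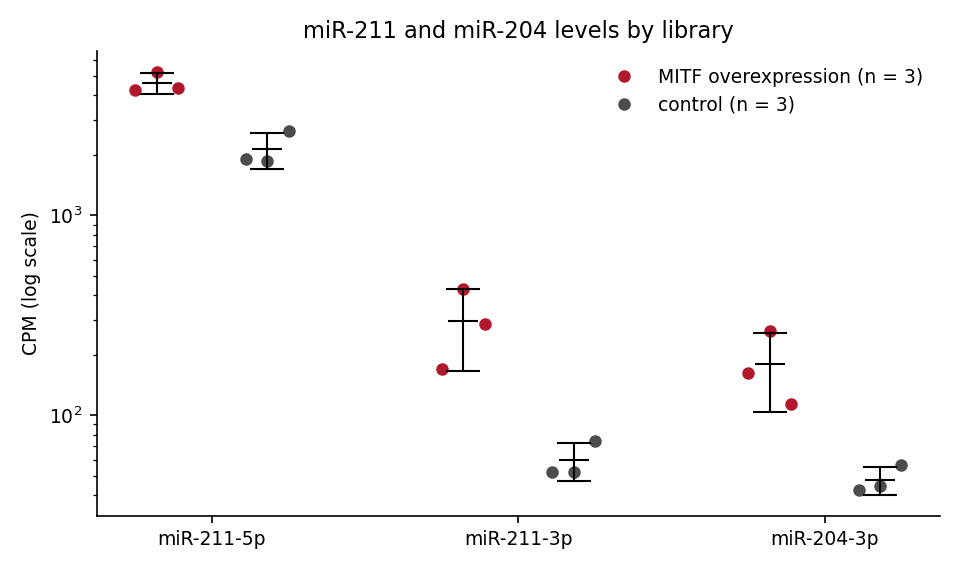
Levels of miR-211-5p, miR-211-3p and miR-204-3p in CPM (log axis) in each library. Points are the 3 MITF overexpression libraries (red, left) and the 3 control libraries (grey, right), and bars give the mean ± SD. MiR-211-5p lay between 4220 and 5220.3 CPM with MITF overexpression, above all controls, and the groups did not overlap in any of the 3 rows.

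MiR-211-5p, the more abundant arm and the one with the family seed, had 1846, 1539 and 1482 reads in MITF overexpression replicates 1, 2 and 3, against 583, 721 and 1169 reads in control replicates 1, 2 and 3. Scaled to CPM, the reads of a library brought to a common total with TMM factors, these were 4220, 5220.3 and 4333 CPM with MITF overexpression, against 1906, 1879.5 and 2640 CPM in controls. The MITF overexpression libraries were close to each other, and control replicate 3 was the highest control. The means were 4591 ± 548 CPM and 2142 ± 431 CPM (SD, n = 3 each). The log2 fold change was 1.10 ± 0.22 (SE), with a 95% interval of 0.61 to 1.59, and edgeR's quasi-likelihood test gave it an adjusted p of 0.0211. Among mouse-named rows, miR-211-5p ranked between 32 and 38 in abundance with MITF overexpression and between 49 and 63 in controls. The call was lost without MITF overexpression replicate 2 (adjusted p = 0.0560), without replicate 3 (0.0690) and without control replicate 2 (0.0713), while the log2 fold change stayed between 0.99 and 1.34 over the 6 fits with 1 library left out.

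MiR-211-3p, the opposite arm of the same hairpin, was sequenced as a form of 19 bases that lacks the last 2 of the reference. It had 75, 127 and 98 reads in MITF overexpression replicates 1, 2 and 3, against 16, 20 and 33 reads in the controls. In CPM it stood at 171, 431 and 286 with MITF overexpression, against 52.3, 52.1 and 74.5 in controls. Replicate 2 was the highest MITF overexpression library and replicate 1 the lowest, and the lowest of them was still above the highest control. The means were 296 ± 130 CPM and 59.7 ± 12.9 CPM (SD, n = 3 each). The log2 fold change was 2.29 ± 0.42 (SE), with a 95% interval of 1.36 to 3.22 (edgeR adjusted p = 0.0200). The authors' deposited table gives this row a fold change of 5.08 and an unadjusted p of 0.0797. Without MITF overexpression replicate 2 the adjusted p was 0.0548, without replicate 3 it was 0.0690 and without control replicate 2 it was 0.0702.

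MiR-204-3p, the only miR-204 row that was tested, had 71, 78 and 39 reads in MITF overexpression replicates 1, 2 and 3, against 13, 17 and 25 reads in the controls. The corresponding levels were 162, 265 and 114 CPM with MITF overexpression, against 42.5, 44.3 and 56.5 CPM in controls. MITF overexpression replicate 3 was the lowest of its group here, whereas replicate 1 was the lowest for both arms of miR-211. The means were 180 ± 76.9 CPM and 47.8 ± 7.59 CPM (SD, n = 3 each). The log2 fold change was 1.90 ± 0.44 (SE), with a 95% interval of 0.92 to 2.88 (edgeR adjusted p = 0.0221). The authors' deposited table gives it a fold change of 3.82 and an unadjusted p of 0.0801. The adjusted p was 0.0663 without MITF overexpression replicate 2, 0.0690 without replicate 3 and 0.0804 without control replicate 2.

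In order of level, miR-211-5p was far above miR-211-3p, which was followed by miR-204-3p, over rows of 22, 19 and 21 bases. MiR-211-3p had more reads than miR-204-3p in each of the 6 libraries, but the ranges of both rows in CPM overlapped within the MITF overexpression group and within the control group.

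**Figure D2:**
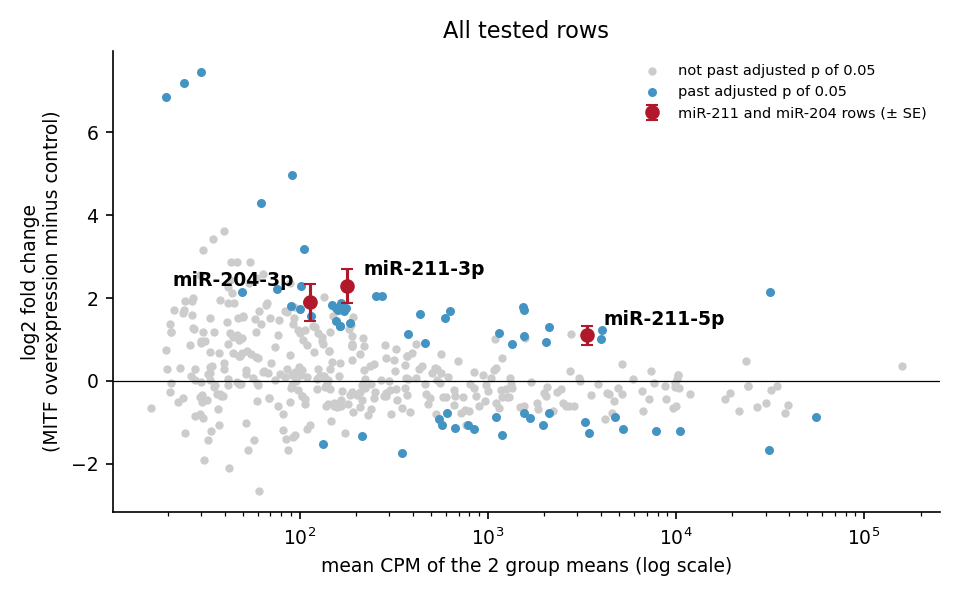
Log2 fold change (MITF overexpression minus control) against mean CPM (log axis) for the 441 tested rows. Rows past an adjusted p of 0.05 are blue, the others grey, and the 3 rows of miR-211 and miR-204 are red with their standard errors. The red points lie above 0, at 1.10, 2.29 and 1.90, among other called rows of like abundance.

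The row named after miR-204-5p had 5 and 9 reads in MITF overexpression replicates 1 and 2 and was listed at 0 in replicate 3 and in all 3 controls. It was too low to be tested. Its sequence is shown because the name alone does not tell which hairpin it came from, with capitals at the positions where it departs from one hairpin or the other. The letters are those of the deposited table, with T for U.
miR-204-5p row: ttccctttgtcatcctTtgcctGA

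Along the miR-204 hairpin the row departs by A17T and is equal at 23 of 24 bases. Along the miR-211 hairpin it departs by A23G and G24A and is equal at 22 of 24 bases. In these tokens the base of the hairpin, written as DNA, stands first and the base of the row last, with positions from the 5′ end of the row. Its first 22 bases are those of miR-211-5p. Its reads amounted to 0.271% and 0.585% of those of miR-211-5p in MITF overexpression replicates 1 and 2. Zeros in the deposited table need not be true zeros. Of 4437 values above 0, none was 1 and 160 were under 5, whereas 538 were exactly 5, so a sequence with under 5 reads in a library was mostly listed at 0.

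Whether the arms of miR-211 moved alike was examined as the share of 3p reads among all miR-211 reads, which does not depend on the scaling between libraries. The 3p arm made up 3.90%, 7.62% and 6.20% of miR-211 reads in MITF overexpression replicates 1, 2 and 3, against 2.67%, 2.70% and 2.75% in control replicates 1, 2 and 3. The controls were nearly equal, and the MITF overexpression libraries were all higher and more spread. The mean was 5.91 ± 1.88% with MITF overexpression and 2.71 ± 0.038% in controls (SD, n = 3 each), a difference of 3.20 percentage points. A two-sided exact permutation test over libraries gave p = 0.1, the lowest value possible with 3 libraries a group, and 0.1 after adjustment over the 3 shares compared. The 95% Wilson interval of MITF overexpression replicate 1, 3.13% to 4.87%, overlapped those of all 3 controls, whose upper bounds ran from 3.83% to 4.29%, while the intervals of replicates 2 and 3 began at 6.44% and 5.12%, above all control intervals. Intervals cover counting error only.

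The share of miR-204 rows was described in the same way. It does not compare the hairpins arm by arm, since miR-204 was counted almost wholly by its 3p row and miR-211 mostly by its 5p row. MiR-204 rows made up 3.81%, 4.96% and 2.41% of all miR-211 and miR-204 reads in MITF overexpression replicates 1, 2 and 3, against 2.12%, 2.24% and 2.04% in the controls. MITF overexpression replicate 3 was close to the controls, and its Wilson interval of 1.77% to 3.28% contained all 3 control values. The means were 3.73 ± 1.28% and 2.13 ± 0.10% (SD, n = 3 each), with an exact permutation p of 0.1 and the same value after adjustment. The difference of 1.59 percentage points fell to 0.97 without MITF overexpression replicate 2. It was 1.35 when the row named after miR-204-5p was left out. Among 3p reads alone, a comparison added after seeing the data, the direction was the other way and the groups overlapped. MiR-204-3p made up 48.6%, 38.0% and 28.5% of the 3p reads of both hairpins in MITF overexpression replicates 1, 2 and 3, against 44.8%, 45.9% and 43.1% in the controls. The means were 38.4 ± 10.1% and 44.6 ± 1.43% (SD, n = 3 each), with an exact permutation p of 0.4.

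As a group, the 4 rows took 0.607%, 0.935% and 0.745% of mouse-named reads in MITF overexpression replicates 1, 2 and 3, against 0.222%, 0.282% and 0.366% in the controls. The groups did not overlap, and the share with MITF overexpression was 2.63 times that of controls, with an exact permutation p of 0.1, the smallest possible. With all tabulated reads as the denominator the difference was 0.32 percentage points, against 0.47 with mouse-named reads.

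**Figure D3:**
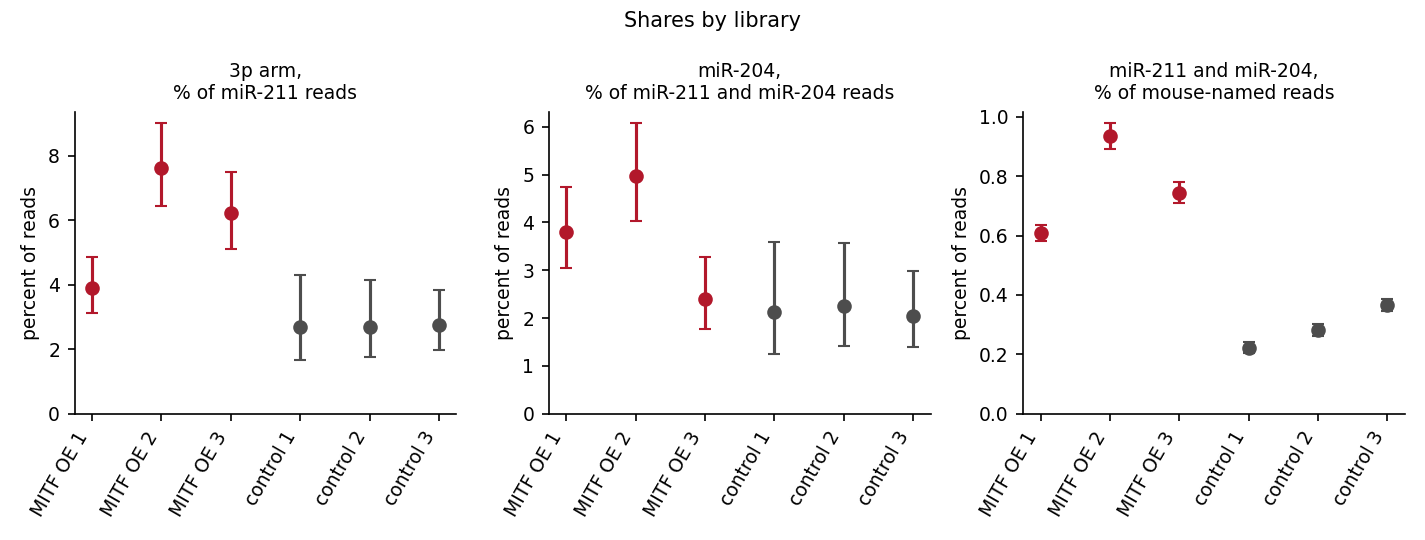
Percent of reads in each library with 95% Wilson intervals (counting error only) for the 3p arm among miR-211 reads, for miR-204 among miR-211 and miR-204 reads, and for both microRNAs among mouse-named reads. MITF overexpression libraries are red on the left and controls grey on the right. The 3p share was near 2.7% in all controls and between 3.90% and 7.62% with MITF overexpression, and the miR-204 share of MITF overexpression replicate 3, at 2.41%, was close to the controls.

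**Figure D4:**
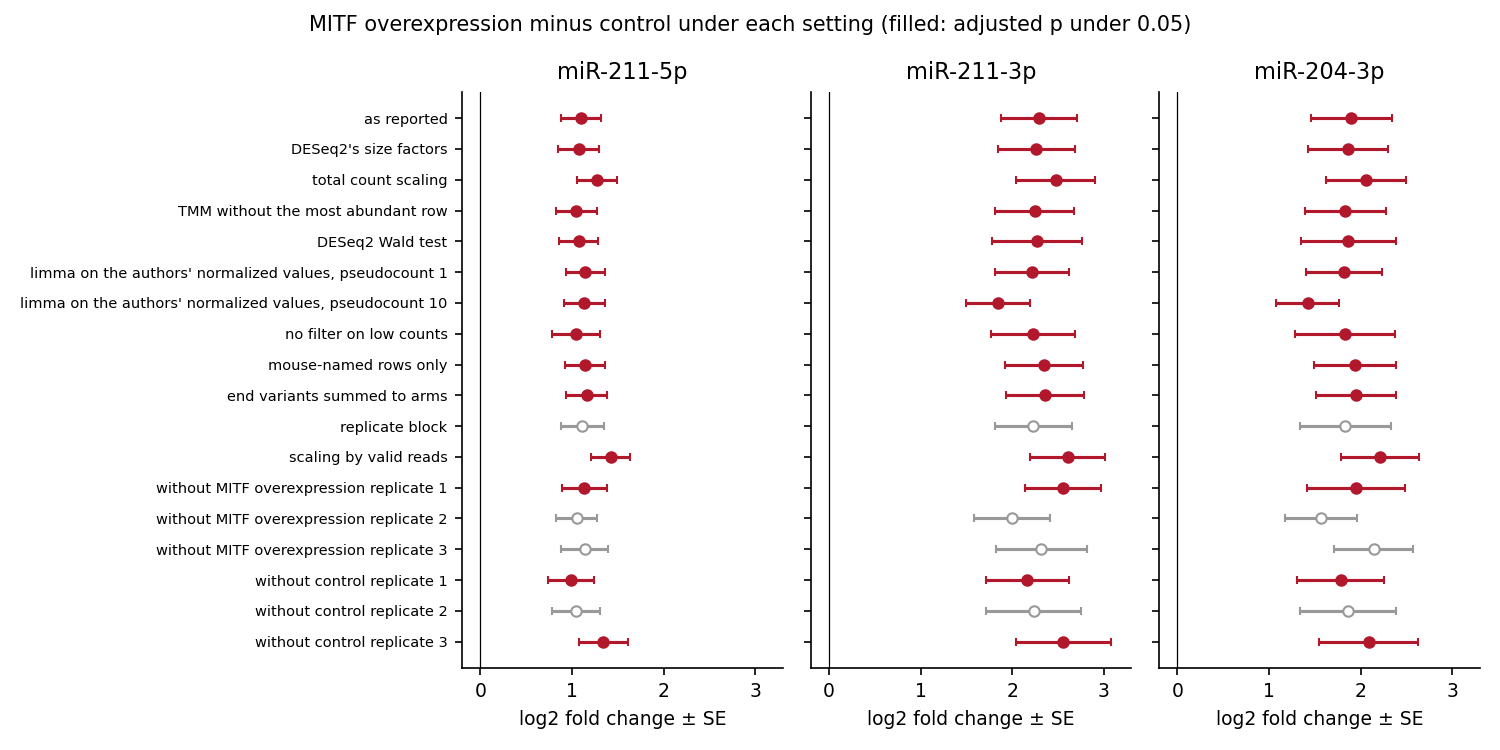
Log2 fold change (MITF overexpression minus control) ± SE of miR-211-5p, miR-211-3p and miR-204-3p under each way of processing the data and with each library left out. Filled red points have an adjusted p under 0.05 and open grey points do not. All points lie to the right of 0, and the open points are the fits without MITF overexpression replicate 2 or 3, without control replicate 2 and with the replicate number as a block.

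Markers of blood and liver moved with the group as well. In the list of blood cell microRNAs, 6 of 7 had a mouse row, and 4 of 8 tested rows rose and none fell, set beside 9.98% higher and 5.22% lower among all tested rows. The count that rose was 0 without MITF overexpression replicate 3 and 2 without replicate 2 or without control replicate 2. Their summed level was 4853 to 8838 CPM with MITF overexpression and 1661 to 2583 CPM in controls, and miR-486a had no mouse row among those used. MiR-122, the liver microRNA, summed to 22727 to 102987 CPM against 8848 to 16385 CPM. Of 6 keratinocyte microRNAs 5 had a mouse row and neither of the 2 tested rows was called, with summed levels of 43.9 to 302 CPM against 51.9 to 141 CPM, and miR-141 had no mouse row among those used. Within the MITF overexpression group, blood and liver sums were highest in replicate 1, where both arms of miR-211 were lowest, and lowest in replicate 3, where miR-204-3p was lowest. MiR-211-5p differed little between those replicates, with 4220 and 4333 CPM. The controls had another order. Their liver sum was highest in control replicate 3, where every tested row of miR-211 and miR-204 was highest too. Their blood sum was highest in control replicate 2. Such orders within a group rest on few libraries. The part of these sources, and of serum in the medium, in the miR-211 and miR-204 reads was not tested.

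MicroRNAs reported to repress Mitf included rows called in both directions. Of 14 listed, 11 had a mouse row, and of 11 tested rows 1 rose and 3 fell, where 9.98% of all tested rows were called higher and 5.22% lower. Their median log2 fold change was -0.51, set beside 0.08 over all tested rows. The one that rose was miR-148a-3p, at 1.30 ± 0.24 (SE) on the log2 scale (edgeR adjusted p = 0.0200). Those that fell were its family member miR-152-3p, with -0.87 ± 0.21, miR-101b-3p, with -1.05 ± 0.29, and miR-340-5p, with -1.15 ± 0.33. Neither of the 2 most abundant rows was called. MiR-25-3p had -0.66 on the log2 scale (edgeR adjusted p = 0.0568) and miR-26a-5p had -0.12 (0.760). With 1 library left out, between 0 and 1 rows of the list were called higher and between 0 and 4 lower, with none called without MITF overexpression replicate 3, 1 higher and none lower without replicate 2 or without control replicate 2, and 1 higher and 1 lower without control replicate 1 or 3.

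Of 11 other microRNAs tied to pigmentation, 10 had a mouse row, and of 10 tested rows 1 rose and 1 fell. With 9.98% of all tested rows called higher and 5.22% lower, these counts are near the share of the whole table. Their median log2 fold change was 0.07. MiR-145a-5p, which is reported to target genes of melanosome transport, was the one that rose, by 1.89 ± 0.55 (SE) on the log2 scale (edgeR adjusted p = 0.0416). MiR-21a-5p, an abundant microRNA of many cultured cells, was the one that fell, at -1.68 ± 0.26 (SE) on the same scale (0.0189). MiR-146a-5p, the other of the 2 most abundant rows, stood at -0.59 (0.0805). MiR-145a-5p was not called without MITF overexpression replicate 1, 2 or 3 or without control replicate 2, and miR-21a-5p was not called without MITF overexpression replicate 3.

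Across the 6 libraries, the mouse-named rows with the pattern closest to miR-211-5p were a variant row of mir-692-2, with a Pearson r of 0.986 on log2 CPM, miR-130b-5p (0.986), miR-130b-3p (0.981), miR-139-5p (0.971) and miR-532-3p (0.954), out of 282 rows compared. For comparison, r was 0.971 for miR-211-3p and 0.960 for miR-204-3p. In all of these rows the groups did not overlap, so r includes the difference between groups, and it is given as a description over 6 libraries that share depth and scaling. MiR-130b-5p, for example, stood at 103 ± 6.33 CPM with MITF overexpression and 35.5 ± 8.60 CPM in controls (SD, n = 3 each). None of the 5 passed edgeR's test, with adjusted p from 0.0534 to 0.134. The more abundant arm of miR-532, miR-532-5p, went the other way. It had 1154 CPM with MITF overexpression and 1976 CPM in controls (edgeR adjusted p = 0.0303).

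The starts of the Trpm1 transcript are shown because MITF is known to bind the E-box letters CACGTG and CATGTG and because rows from both hosts rose together. The RefSeq table used gives 2 Trpm1 starts, at 51971 and 20347 bases before the miR-211 hairpin, and 2 Trpm3 starts. Windows of 300 bases, with 250 before and 50 after each start, were searched for both motifs on both strands. CATGTG was found at 141 bases before the first Trpm1 start, and CACGTG at 229 bases before the second, with a further CATGTG in the 50 bases after it. Over 32851 windows of all genes, 7.15% held CACGTG, 14.2% held CATGTG and 20.4% held either. Neither Trpm3 window held these letters, which says nothing on MITF elsewhere in the gene. A match is a description and not a site of binding. The stretches below are on the plus strand of GRCm38.p6, at chr7:64153654-64153739 for the first start and chr7:64185209-64185294 for the second, with the motif in capitals.
Trpm1 start 1: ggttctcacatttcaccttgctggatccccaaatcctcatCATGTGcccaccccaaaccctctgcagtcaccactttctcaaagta
Trpm1 start 2: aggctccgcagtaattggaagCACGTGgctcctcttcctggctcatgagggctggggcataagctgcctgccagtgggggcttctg

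Short motifs reported for the export of microRNAs in vesicles of human T cells were also looked up in the rows, on the strand given. CCCT, whose letters lie inside the seed of the 5p arms shown above, occurred in 44 of 506 mouse-named rows (8.70%), among them both 5p rows of the family. GGAG occurred in 71 of 506 and in no row of the family.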

How the data were processed

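Library preparation followed Illumina's TruSeq kit for small RNA, per the labels' protocols, and mm9 was the genome build, per the submitters' processing notes. Aligner and counter were not given in the sources used here. Per row and library, the authors deposited estimated counts, which need not be whole, although all values of the 4 rows described were whole. Per the file headers, the authors also deposited normalized values, a signal that is the estimated count over a factor fixed within each library, with group means, a fold change as their ratio, its log2 and an unadjusted p-value. The count of reads in each read class was deposited separately. 4 lines of the microRNA table were empty.

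Estimated counts were rounded and tested on all 6 libraries with edgeR 4.0.16 in R 4.3.3, in place of the whole counts the design had assumed, with TMM scaling, the quasi-likelihood test with group as the only term, and filterByExpr with its default minimum (10 counts). Benjamini-Hochberg adjustment ran over all 441 tested rows, with a threshold of 0.05. Log2 CPM used a prior count of 2. Shares were compared by two-sided exact permutation of libraries. Named rows were all rows of miR-211 and miR-204, the 5 mouse-named rows most correlated with miR-211-5p, and the called and 2 most abundant rows of 2 lists. Members and lists were chosen with earlier results of these data known. Alternatives were DESeq2 1.42.0, limma 3.58.1 on the authors' normalized values, other scalings, filters and row sets, a replicate block and leaving out each library. The fit was tested on simulated counts. Between libraries, Pearson r of log2 CPM over tested rows ran from 0.862 to 0.965. Sequences and positions come from RefSeq on GRCm38.p6 and GENCODE M21, and no coordinates were converted.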

Additional observations from a re-analysis of the deposited data

How the results depend on the processing

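The 3 tested rows kept their direction in every setting run. Under 10 settings that changed the scaling, test, filter or rows, their log2 fold changes ran from 1.04 to 1.42 for miR-211-5p, from 1.84 to 2.60 for miR-211-3p and from 1.42 to 2.21 for miR-204-3p, and each stayed past the threshold. Scaling by valid reads, and leaving out the row named after miR-204-5p, were chosen after seeing the data, as was the miR-204 share among 3p reads alone, which reversed to -6.24 percentage points. With the replicate number as a block the values were 1.11, 2.23 and 1.83, with adjusted p of 0.0714, 0.0714 and 0.0830, and 2 rows of the table were called in place of 67. The labels of same-numbered libraries share only the number. Their deviations from the group means correlated at -0.0477, 0.0418 and -0.0145. With 3 libraries a group, such values cannot show whether the libraries were paired. The count of called rows was 110 with DESeq2 and 110 with limma at a pseudocount of 10.

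Leaving out 1 library gave 0 to 56 called rows, 0.99 to 1.34 for miR-211-5p, 1.997 to 2.56 for miR-211-3p and 1.56 to 2.14 for miR-204-3p. The 0 was without MITF overexpression replicate 3, where 135 rows had an unadjusted p under 0.05 by edgeR and the lowest adjusted p was 0.0690. Without replicate 2 there were 14 called rows, and without control replicate 2 there were 11. The 3p share differed by 2.35 to 4.21 percentage points, the miR-204 share by 0.97 to 2.25 and the share of mouse-named reads by 0.39 to 0.55. With 3 libraries a group, no share could reach a p below 0.1.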
